A study of Mus musculus with 8 samples.

Results

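Interferon-stimulated genes are switched on when a cell senses interferon, and their RNA is the usual readout of that response. The 9 genes described here are Isg15, Ifit1, Ifit2, Ifit3, Irf7, Oasl2, Rsad2, Bst2 and Usp18, of 21154 genes named on the array. They were chosen by name, and every probe whose RefSeq transcript belongs to one of them was taken, which gave 10 probes, because Isg15 has 2. All 10 probes were well above background on all 7 arrays with scanner files and all 10 passed the filter on dim probes.

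RNA came from brown adipose tissue, the heat-producing fat, of male C57BL/6NCrSlc mice. Each of the 8 mice was hybridised alone to a single-colour Agilent expression array. In 4 mice (TAC) the thoracic aorta was narrowed at 11 weeks of age, which overloads the left ventricle, and 4 mice (Sham) had sham surgery at the same age. Tissue was collected at 13 weeks of age, and the time after surgery is given as 2 weeks in some labels and 4 weeks in another. The comparison asks how failure of a pressure-loaded heart changes RNA in brown fat, and here how it changes the interferon-stimulated genes.

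In a responding cell, type I interferons (IFN-alpha and IFN-beta) bind the receptor chains Ifnar1 and Ifnar2, the kinases Jak1 and Tyk2 are activated, and a complex that holds Stat2 and Irf9 then binds interferon-stimulated response elements in promoters. IFN-gamma acts through its own receptor and on gamma-activated sites. The response feeds forward, since Irf7 raises the output of IFN-alpha, and is braked, since Usp18 blocks the receptor. In fat depots both adipocytes and resident immune cells can respond to interferon, and bulk tissue does not separate them.

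The response element core, read here as GAAANNGAAA or its reverse complement TTTCNNTTTC, was present in the promoter windows of 5 of the 8 genes that have a window. Each window holds the 250 bases before the gene start and the 50 bases after it (RefSeq, GRCm38.p6). Of all 27025 genes with such a window, 3.99% held the core on either strand, and of 33 other interferon-stimulated genes with a window, 13 did. The stretches that hold it are shown because they are the feature the choice of these genes did not use. Capitals mark the core, and in Bst2 and Isg15 neighbouring matches overlap.
Bst2 (chr8:71537567-71537622, minus strand, first match 130 bases before the start): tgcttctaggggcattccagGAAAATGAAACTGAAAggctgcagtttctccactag
Isg15 (chr4:156200855-156200916, minus strand, first match 78 bases before the start): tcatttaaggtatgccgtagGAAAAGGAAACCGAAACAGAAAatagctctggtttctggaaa
Ifit1 (chr19:34640765-34640833, plus strand, first match 104 bases before the start): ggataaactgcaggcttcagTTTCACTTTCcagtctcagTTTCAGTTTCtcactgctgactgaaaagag
Ifit3 (chr19:34583353-34583436, plus strand, first match 156 bases before the start): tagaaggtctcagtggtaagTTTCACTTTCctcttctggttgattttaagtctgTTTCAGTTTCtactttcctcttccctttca
Rsad2 (chr12:26456543-26456592, minus strand, first match 120 bases before the start): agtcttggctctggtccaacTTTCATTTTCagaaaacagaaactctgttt

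Bst2, Ifit1 and Ifit3 each held 2 matches, Isg15 held 3 and Rsad2 held 1. Those of Ifit1 and Ifit3, both of the Ifit cluster on chromosome 19, spelled the same letters in the same order, TTTCACTTTC and then TTTCAGTTTC. These letters were not in the windows of Ifit2, Irf7 and Oasl2, and Usp18 had no entry. The gamma-activated site, read as TTCNNNGAA, was in the windows of Bst2 and Ifit2, against 9.55% of all genes, and in Bst2 it overlaps the core. A match is a string of letters and does not show that a factor binds there.

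Scanner files were analysed for 7 arrays, all 4 of TAC and replicates 2 to 4 of Sham, and the deposited table of normalized values also holds Sham replicate 1. Of the spots, 54.5% to 64.3% were well above background. TAC replicate 1 stood apart: of 33364 probes, 1233 lay at least 1 log2 unit above the mean of the other TAC arrays and 1084 at least 1 below, against 376 to 585 above and 364 to 783 below for the other TAC arrays. The 7 scanned arrays shared a slide on which the Sham arrays occupied the first row and the TAC arrays the second, so place on the slide and surgery cannot be told apart. All 12 brown adipocyte markers were well above background on every scanned array, among them Ucp1, the uncoupling protein that makes the heat.

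No interferon-stimulated gene differed between TAC and Sham past an adjusted p of 0.05 (limma, Benjamini-Hochberg over 33364 probes), as 0% of all probes did, with 0 calls also by the methods' test of the same values. At an unadjusted p of 0.05, 0 of the 10 probes were higher after TAC, against 4.38% of all probes, and 0 were lower, against 8.43%. Every fold change of the 10 was nevertheless above 0, with a median over the 9 genes of 0.68 on the log2 scale where the median over all probes was -0.03. In the 7 scanned arrays, 6 of the 10 probes had every TAC array above every Sham array, against 5.59% of all probes. In the table of 8 arrays, 0 of the 10 did, against 3.53%, and 0 of the 10 passed an unadjusted p of 0.05, against 4.65%.

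Levels below are log2 values from the deposited table, on which 0 is close to the 75th percentile of an array's signals, in the order of replicates 1 to 4. A level cannot be compared between genes, since each probe has its own brightness. Fold changes, errors and p-values come from limma on the 7 scanned arrays. In bulk tissue, fewer cells of a type and less RNA per cell cannot be told apart.

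Irf7, the transcription factor that amplifies the interferon response, gave levels of -1.17, -1.30, -1.24 and -1.13 in Sham mice and 1.14, -1.35, -0.96 and -1.03 in TAC mice. The Sham arrays were the tightest of the 9 genes (-1.21 ± 0.07, SD, n = 4), and only TAC replicate 1 left their range by more than 0.2, while TAC replicate 2 lay below them all. The TAC mean was -0.55 ± 1.14 (SD, n = 4). The log2 fold change was 0.69 (SE 0.57, 95% confidence interval -0.65 to 2.03, adjusted p = 0.625).

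Bst2, or tetherin, which holds budding virus particles at the cell surface, gave 3.38, 2.78, 2.81 and 2.82 in Sham mice and 4.57, 3.03, 3.41 and 3.10 in TAC mice. Sham replicates 2 to 4 lay within 0.04 of each other and below every TAC array, while Sham replicate 1 lay above TAC replicates 2 and 4. The log2 fold change was 0.74 (SE 0.36, 95% confidence interval -0.11 to 1.58, adjusted p = 0.442), the lowest adjusted p of the 10 probes.

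Rsad2, or viperin, an enzyme that makes a chain-terminating nucleotide, gave 2.03, 1.75, 1.38 and 1.17 in Sham mice and 2.28, 1.58, 1.43 and 1.95 in TAC mice. It varied most among Sham replicates 2 to 4, its groups overlapped in both sources, and TAC replicate 1 lay only 0.25 above Sham replicate 1. Its log2 fold change was 0.39 (SE 0.23, 95% confidence interval -0.15 to 0.94, adjusted p = 0.504).

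The Ifit genes encode proteins that recognise RNA lacking the host's cap marks, and the 3 lie in one cluster on chromosome 19. Ifit1 gave -1.87, -2.51, -2.46 and -2.32 in Sham mice and -0.72, -2.31, -1.78 and -2.28 in TAC mice. Ifit2 gave -1.61, -2.31, -2.56 and -2.47 in Sham mice and -1.17, -2.42, -2.22 and -2.63 in TAC mice. Ifit3 gave 1.07, 0.00, -0.31 and -0.22 in Sham mice and 2.09, 0.27, 0.55 and 0.00 in TAC mice. For Ifit1 and Ifit3 the 7 scanned arrays did not overlap between groups. For Ifit2 they did, since TAC replicate 4 was the lowest of all 8 arrays, and for all 3 genes Sham replicate 1 lay above at least 2 TAC arrays. The log2 fold changes were 0.67 (SE 0.38) for Ifit1, 0.35 (SE 0.33) for Ifit2 and 0.92 (SE 0.47) for Ifit3, with adjusted p-values of 0.488, 0.668 and 0.459. Ifit3 has a near-identical copy, Ifit3b, and whether its probe also reads that transcript was not tested; the probe that stands for Ifit3b gave 0.70 (SE 0.46).

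Oasl2, an oligoadenylate synthetase-like protein of the antiviral response, gave -0.06, -0.52, -0.74 and -0.61 in Sham mice and 1.61, -0.24, -0.17 and -0.43 in TAC mice. Each TAC array lay above Sham replicates 2 to 4, but Sham replicate 1 lay above TAC replicates 2 to 4. The log2 fold change was 0.83 (SE 0.48, 95% confidence interval -0.29 to 1.96, adjusted p = 0.495).

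Isg15 is a ubiquitin-like protein that is joined to other proteins, and Usp18 removes it from them. The brighter Isg15 probe gave 1.93, 1.52, 1.69 and 1.66 in Sham mice and 3.10, 1.79, 2.35 and 1.73 in TAC mice, and the other gave -1.92, -2.19, -2.10 and -2.15 in Sham mice and -0.63, -2.06, -1.59 and -2.04 in TAC mice. The probes ordered the TAC arrays alike at the top, with replicate 1 highest and replicate 3 next, and both had Sham replicate 1 as the highest Sham array. Their log2 fold changes were 0.64 (SE 0.32, adjusted p = 0.457) and 0.58 (SE 0.34, adjusted p = 0.50). Usp18 gave -0.18, -0.96, -1.03 and -0.91 in Sham mice and 1.11, -0.85, -0.38 and -1.09 in TAC mice, so Sham replicate 1 lay above TAC replicates 2 to 4. Its log2 fold change was 0.68 (SE 0.49, adjusted p = 0.579).

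**Figure D1:**
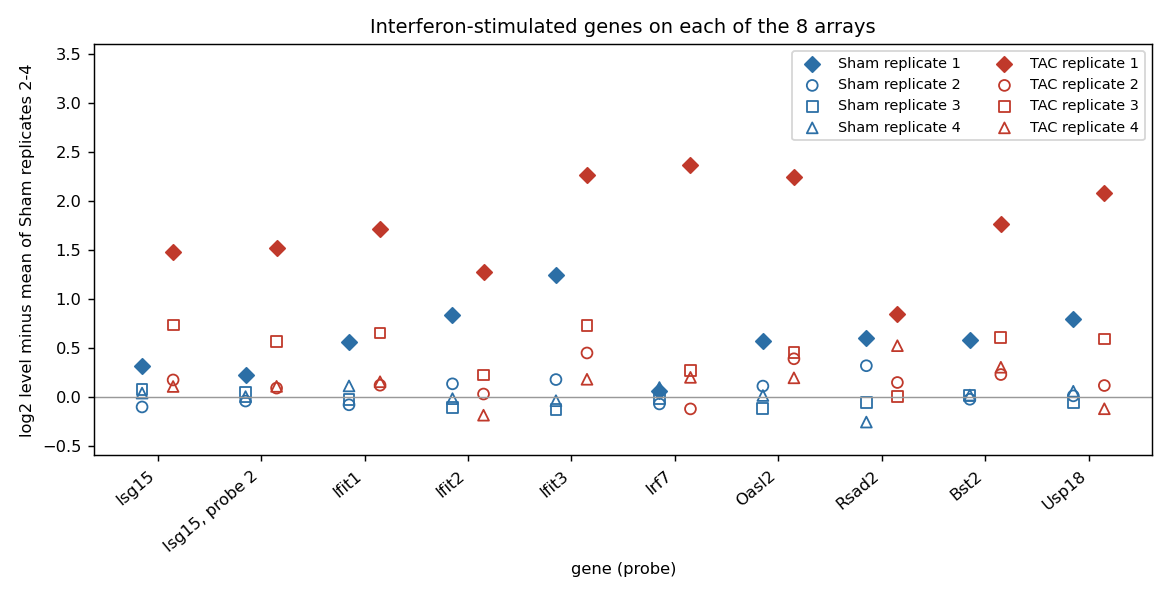
Points show each probe's log2 level on each of the 8 arrays (table values, vertical axis) minus the mean of Sham replicates 2 to 4; the horizontal axis gives the gene, with Sham arrays in blue on the left and TAC arrays in red on the right, replicate 1 filled. TAC replicate 1 is the highest array for all 10 probes, and Sham replicate 1 lies above the other Sham arrays for 9 of them.

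TAC replicate 1 was the highest of the 8 arrays for 10 of the 10 probes, against 17.2% of all probes. It lay at least 1 log2 unit above the mean of the other TAC arrays for 9 of the 10, against 3.61%, the exception being Rsad2. Against the mean of Sham replicates 2 to 4 its level was 5.18-fold for Irf7, 4.82-fold for Ifit3, 4.74-fold for Oasl2 and 4.24-fold for Usp18. It was 3.41-fold for Bst2, 3.29-fold for Ifit1, 2.79-fold for the brighter Isg15 probe, 2.43-fold for Ifit2 and 1.80-fold for Rsad2. Leaving this array out lowered the median log2 fold change over the 9 genes from 0.68 to 0.32.

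Sham replicate 1 was the highest of the 4 Sham arrays for 9 of the 10 probes, against 21.3% of all probes, Irf7 being the exception. Its levels were 2.36-fold those of the other Sham arrays for Ifit3, 1.79-fold for Ifit2 and 1.73-fold for Usp18, and 1.04-fold for Irf7. The order of the genes thus differed between the highest Sham and the highest TAC array, with Irf7 first in the TAC array and last in the Sham array. TAC replicate 3 came next among TAC arrays, with a mean over the 9 genes 0.47 above Sham replicates 2 to 4, from 0.73 for Isg15 to -0.0002 for Rsad2. TAC replicates 2 and 4 lay 0.17 and 0.15 above on the same measure.

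Without TAC replicate 1, the 6 remaining scanned arrays gave 3 of 10 probes higher after TAC at an unadjusted p of 0.05 (limma), against 4.68% of all probes. These were Oasl2 (log2 fold change 0.36, adjusted p = 0.266), Bst2 (0.40, adjusted p = 0.272) and Ifit3 (0.47, adjusted p = 0.321). With Sham replicate 1 brought in from the table and TAC replicate 1 left out, 0 of 10 did, against 4.57%, and the median over the 9 genes was 0.14. Oasl2 then stood at 0.20, Bst2 at 0.23 and Ifit3 at 0.14, while Ifit2 stood at -0.19 and Usp18 at -0.0045. With both replicates 1 left out of the table, 3 of 10 probes were higher at an unadjusted p of 0.05, against 3.81%, and the median was 0.31. With all other arrays kept and the main settings, the count was thus 0 with either or both replicates 1 in and 3 with neither. It was not 0 in every comparison that held TAC replicate 1. In the scanned arrays it was 1 without TAC replicate 2 and 2 without TAC replicate 4.

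**Figure D2:**
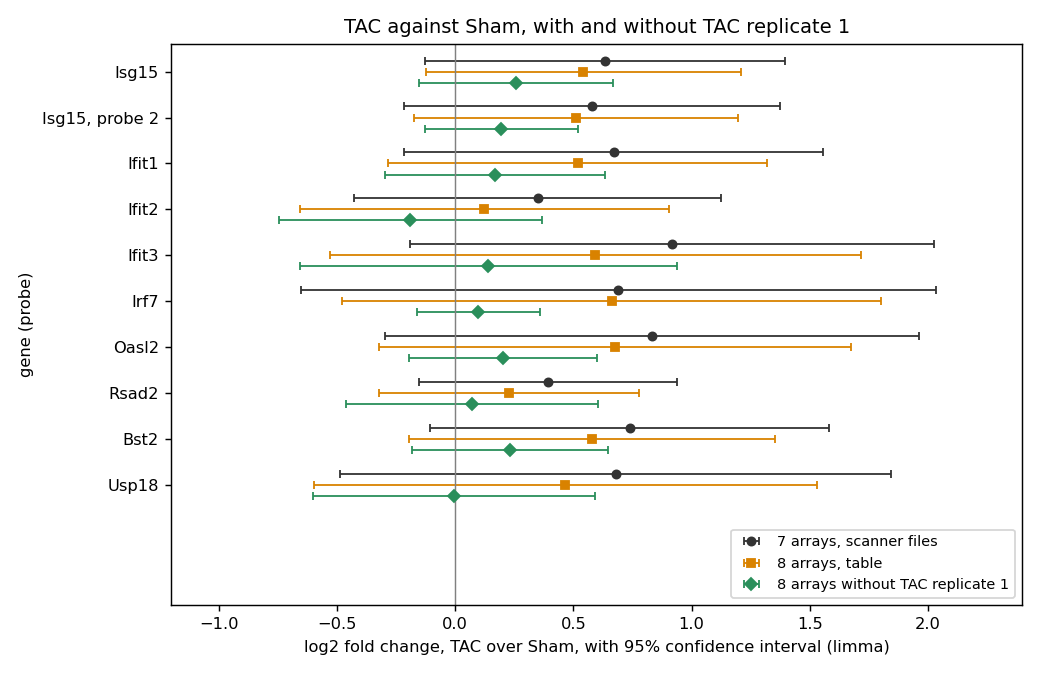
Log2 fold change of TAC over Sham (horizontal axis) with its 95% confidence interval from limma for each probe (vertical axis), in the 7 scanned arrays, in the table of 8 arrays and in the table without TAC replicate 1. Every interval spans 0, and the 8-array estimates without TAC replicate 1 lie between -0.19 and 0.26.

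Among 46 other interferon-stimulated genes on a fixed list, 39 were tested. Of these, 37 had a fold change above 0, against 44.2% of all probes, with a median of 0.34. At an unadjusted p of 0.05, 2 of the 39 were higher after TAC, which is near the 4.38% of all probes. In the other direction 0 were lower, against 8.43%. Cmpk2, a nucleotide kinase next to Rsad2 in the genome, gave 0.83 (SE 0.26, adjusted p = 0.305). Ly6e, a membrane-anchored antiviral protein, gave 0.63 (SE 0.24, adjusted p = 0.356). Without TAC replicate 1 the median was 0.16 in the scanned arrays, with 9 higher, against 4.68% of all probes. In the table with Sham replicate 1 it was 0.05, with 2 higher, against 4.57%, and 1 lower, against 8.64%.

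Of 15 ligand genes with a probe, 8 were well above background on all 7 scanned arrays, mostly Ifna genes, and 3 on none. Ifnb1, the gene of IFN-beta, was not well above background on any scanned array, and Ifng was well above background on 1 of 7. Of 19 ligand genes 11 were tested. At an unadjusted p of 0.05, 0 were higher, against 4.38% of all probes, and 1 was lower, against 8.43%. That gene, Ifna7, was well above background on the 3 Sham arrays and on no TAC array (adjusted p = 0.273). It thus met the filter through the Sham arrays alone, and its signal was dim, so its call is not read as a result. The Ifna genes are close copies of each other, so which of them a probe reads is uncertain.

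None of the 9 receptor and kinase genes passed an unadjusted p of 0.05 in either direction in the scanned arrays, and their median was -0.06. In the table of 8 arrays 1 was lower, Ifnar1 (-0.36), against 3189 of all 33364 probes. In the scanned arrays Ifnar1 stood at -0.28 (SE 0.15) and Ifnar2, its partner chain, at -0.08 (SE 0.08). These values for Ifnar1 are those of 1 of its 3 tested probes, of which 2 had a fold change below 0 and 1 above. The 8 transcription factors also gave 0 calls in the scanned arrays, with Irf9 at 0.36 (SE 0.20) and Stat2 at 0.27 (SE 0.19). In the table without TAC replicate 1, 2 of the 8 were lower, against 8.64% of all probes. Of 14 sensors and adaptors 0 passed, and their median was 0.14, with 8 fold changes above 0 and 6 below. Among them, 2 RNA helicases that detect viral RNA gave 0.45 (SE 0.20) for Ddx58 and 0.46 (SE 0.23) for Ifih1. Without TAC replicate 1 these 2 of the 14 were higher at an unadjusted p of 0.05, at 0.27 and 0.25, against 4.68% of all probes. In the table without that array 0 of the 14 were, against 4.57%. The median of the 14 without TAC replicate 1 was 0.02 in the scanned arrays and -0.02 in the table. Dhx58, a helicase on the list of other interferon-stimulated genes, stood at -0.002 (SE 0.27) in the scanned arrays. Without TAC replicate 1 it stood at -0.24. The 5 enzymes that attach Isg15 to its targets gave 0 calls and a median of 0.22, with Uba7, the first enzyme of the chain, at 0.27 (SE 0.25).

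Among 7 negative regulators 2 were lower at an unadjusted p of 0.05, against 8.43% of all probes, and 0 were higher, against 4.38%. Cish, a cytokine-signalling suppressor induced through STAT5, had a log2 fold change of -1.53 (SE 0.40, adjusted p = 0.247). Socs3, a suppressor of JAK kinases, had -0.41 (SE 0.14, adjusted p = 0.331). Socs1, the suppressor most tied to interferon, stood at 0.26 (SE 0.24).

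Genes induced chiefly by IFN-gamma, the guanylate-binding and immunity-related GTPases with the antigen-processing genes, stood higher on Sham replicate 1 than on TAC replicate 3. Relative to Sham replicates 2 to 4, the mean of the 23 tested genes was 0.65 on Sham replicate 1, 0.85 on TAC replicate 1 and -0.01 on TAC replicate 3, where the 9 genes gave 0.62, 1.78 and 0.47. Of the 23, 22 had Sham replicate 1 as their highest Sham array, against 21.3% of all probes. After TAC 0 of the 23 passed an unadjusted p of 0.05, and their median was 0.22 in the 7 scanned arrays, 0.04 in the table of 8, and -0.0007 and -0.17 in these sources once TAC replicate 1 was left out. The difference between the lists was not tested.

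Markers of immune cells stood high on the same array. Of 15 macrophage markers, 12 were highest of the 8 arrays on TAC replicate 1, against 17.2% of all probes. Their mean on it lay 1.05 above Sham replicates 2 to 4. It lay at -0.36 to -0.09 on the other TAC arrays and -0.15 to 0.23 on the Sham arrays. Of 11 tested T and NK cell markers, 8 were highest on TAC replicate 1, against the same 17.2%. Their mean was 1.21 on that array, -0.40 to -0.03 on the other TAC arrays and 0.76 on Sham replicate 1. The 5 tested neutrophil markers averaged 1.02 on TAC replicate 1, which S100a8 and S100a9 carried. They lay 3.14 and 3.26 above the mean of the other TAC arrays, and the remaining 3 lay -0.05 to 0.39 from it. The 8 tested markers of plasmacytoid dendritic cells, known for high interferon output, averaged 0.73 on TAC replicate 1. Irf8, Klk1, Ly6d and Cox6a2 carried this average and lay 0.83 to 1.76 above the mean of the other TAC arrays. Siglech, Ccr9, Tcf4 and Pacsin1 lay -0.10 to 0.25 from that mean. Cox6a2 gave 3.03, 2.73, 0.64 and 3.23 on TAC replicates 1 to 4 in the scanned values. The skeletal muscle marker Ckm gave 2.48, 2.05, 0.13 and 2.61 there, and both genes put the 7 scanned arrays in the same order. Irf8 is also on the list of transcription factors. Which cells these values came from was not tested. Of the 8 fold changes of plasmacytoid dendritic cell markers after TAC, 7 were above 0, against 44.2% of all probes. Their median was 0.16, with 0 calls. Without TAC replicate 1, 4 of the 8 were above 0 in the scanned arrays. The median was then -0.004, and it was also -0.004 in the table without that array. Of 13 T and NK cell markers with a probe, 8 were well above background on all 7 scanned arrays and 1, Cd8b1, on none, and of 9 neutrophil markers 4 were on all and 2, Mpo and Ltf, on none.

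The counts for some marker lists changed with TAC replicate 1 left out. Of the 15 macrophage markers, 1 was higher at an unadjusted p of 0.05 in the 7 scanned arrays, against 4.38% of all probes. It was Cd14 (0.38, SE 0.14, adjusted p = 0.349). In the other direction 0 were lower, against 8.43%, and the median of the 15 was 0.13. Without TAC replicate 1, 1 was higher in the scanned arrays, against 4.68% of all probes, and 4 were lower, against 8.45%. In the table without that array 0 were higher, against 4.57%, and 6 were lower, against 8.64%. The medians were -0.28 and -0.32. Brown adipocyte markers averaged -1.03 on TAC replicate 1, where Elovl3 and Dio2 stood at -4.07 and -1.99 relative to the other TAC arrays and the remaining 10 at -1.07 to 0.06. After TAC 2 of the 12 were lower at an unadjusted p of 0.05, against 8.43% of all probes. They were Ucp1 (-0.61, SE 0.21, adjusted p = 0.336) and Plin1 (-0.35, SE 0.15, adjusted p = 0.384). All 12 skeletal muscle markers had a fold change above 0, with a median of 1.02 and 0 calls, and their means ran from -0.50 on TAC replicate 3 to 1.60 on TAC replicate 1 and from -0.83 to 0.82 on the Sham arrays. The part of these cell types in the levels of the 9 genes was not tested.

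On TAC replicate 3 the 9 genes stood 0.47 above Sham replicates 2 to 4. Macrophage markers stood at -0.36, plasmacytoid dendritic cell markers at -0.12, T and NK cell markers at -0.03 and B and plasma cell markers at -0.01. Neutrophil markers stood at -0.51, and at -0.46 on Sham replicate 4. Among the 6 arrays other than both replicates 1, TAC replicate 3 was the highest for 9 of the 10 probes, against 17% of all probes. This array was picked because it came next for these same genes, so the count only describes that choice. The 9 genes also ran together over these 6 arrays (median r 0.69), so the probes are not separate observations. By gene TAC replicate 3 was the highest for 8 of the 9 and for 18 of the 39 other interferon-stimulated genes. It was the highest for 4 of the 23 IFN-gamma genes and for 1 of the 15 macrophage markers.

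**Figure D3:**
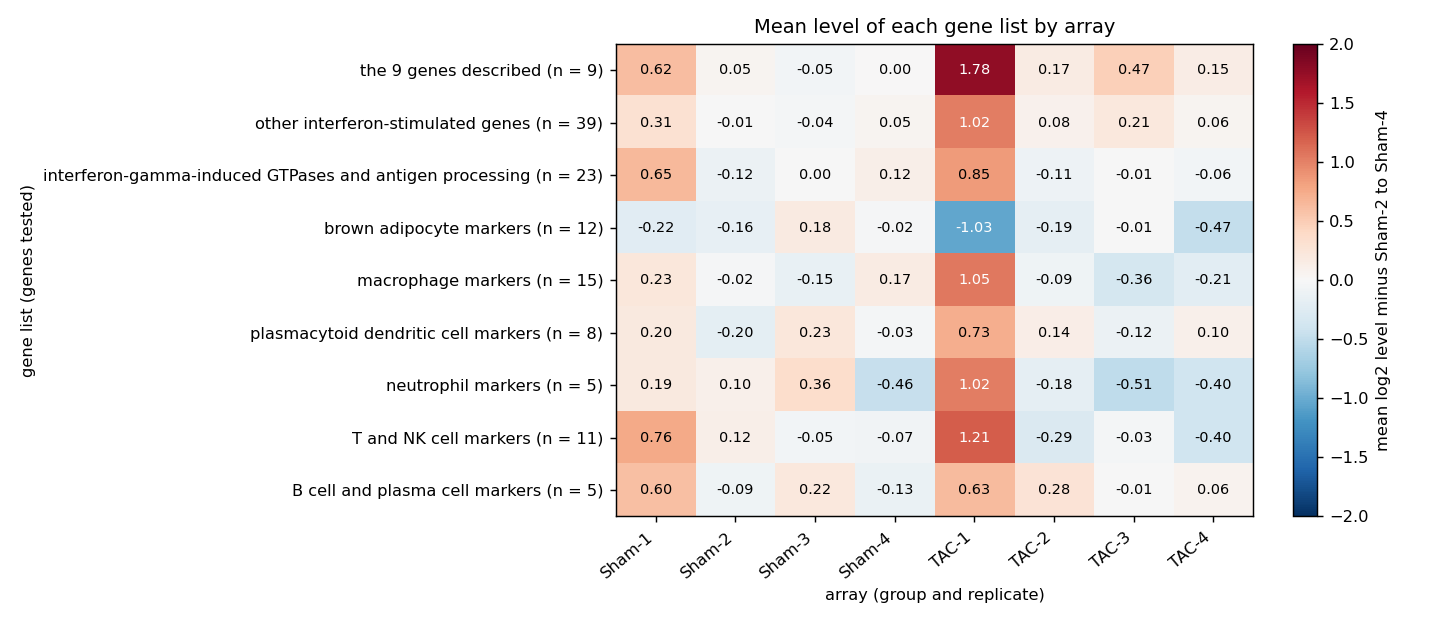
Each cell gives the mean log2 level of a gene list (rows, with the number of genes tested) on an array (columns, table values) minus the mean of Sham replicates 2 to 4, in red where higher and blue where lower. TAC replicate 1 stands at 1.78 for the 9 genes and above 0.6 for every immune list. TAC replicate 3 stands at 0.47 for the 9 genes. Its immune lists run from -0.51 for neutrophil markers to -0.01 for B cell and plasma cell markers. Sham replicate 4 stands at -0.46 for neutrophil markers.

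The 9 genes ran together across arrays, and less closely once TAC replicate 1 was left out. Over the 8 arrays the median correlation between pairs of them was 0.93 (36 pairs), and without TAC replicate 1 it was 0.65, from -0.04 to 0.96. Genes most like their mean over the 7 scanned arrays were Rtp4 (r = 0.995), B830017H08Rik, Clu, Phf11d, Tmsb10, Phf11b, Tmcc2, Il2rg, Kirrel and Xaf1 (r = 0.991), of which Rtp4, Phf11d and Xaf1 are on the list of other interferon-stimulated genes. All points share the 7 arrays, and r is given as a description. In the table without TAC replicate 1 the 10 most alike included Podxl (r = 0.992), Prr5l, Mndal, Ifi44, B830017H08Rik and Phf11b (r = 0.942), and 2 genes, B830017H08Rik and Phf11b, were in both sets. Of the other interferon-stimulated genes that varied enough to be read, 24 of 32 had an r above 0.9, against 6.04% of 6803 genes. Without TAC replicate 1, and with Sham replicate 1, 3 of 21 did, against 0.486% of 5347 genes, and the median r was 0.67. Macrophage markers had a median r of 0.80 with TAC replicate 1 and -0.03 without it.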

How the data were processed

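Single-colour Agilent arrays of mouse brown adipose tissue were analysed from the scanner files of 7 arrays and the deposited table of 8. Per the file headers and the labels, the authors extracted spot signals with Agilent Feature Extraction 10.7.1.1, and gProcessedSignal is a background-subtracted intensity. The table deposited by the authors holds each probe's intensity as a ratio to a level near the array's 75th percentile, and its log2 values lay 0.17 to 0.21 above those computed here from the scanner files.

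Here log2 signals were taken minus each array's 75th percentile over 59305 non-control spots, outlier spots were left out and spots of a probe were averaged. A probe was tested if well above background on 3 or more of the 7 arrays, with 2 or more values per group, which left 33364 probes. TAC was compared with Sham with limma 3.58.1 in R 4.3.3 (lmFit and eBayes, two-sided, Benjamini-Hochberg). The code was tested on simulated data. The number of arrays limits the precision. Each array is a separate sample of its group, and p-values measure the spread between these samples.

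Probes were named through their RefSeq accession, which gave 28026 of 55681 probes a symbol, from RefSeq's gene table. For a gene with several probes in a list, the one with the highest mean stands for it. The methods' general test is a 2-tailed Student test, used as an alternative and called the methods' test. Named are the 9 genes, the genes of the interferon pathway lists, the 3 genes of smallest p of the other lists and the 10 genes most correlated with the 9, among tested genes with an SD of at least 0.2. Ifit3b, Dhx58, S100a8, S100a9, Dio2, Cd8b1, Mpo, Ltf, Siglech, Ccr9, Ly6d and Pacsin1, and the genes most alike without TAC replicate 1, were named after their values were seen. The genes and lists were chosen with earlier results of these data known. Alternatives covered background correction, scaling, the table, filters, outlier spots, the variance model, array weights, the replicate block, probes of a gene, leaving out each array, and the spacing of the promoter motif. Protein sequences of the Ifit genes were not analysed here.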

Additional observations from a re-analysis of the deposited data

Results flagged for a closer look

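In groups of 4 arrays, 20 groups of probe values were looked at for a single array far from the rest. The measure was its gap to the nearest array over the group's whole range. In TAC mice the array measured was always TAC replicate 1, in the scanned values. In Sham mice it was the end with the larger gap, in the table. Dixon's 95% critical value was passed by 4 groups. TAC replicate 1 was known beforehand to stand apart, so a rate of about 1 in 20 by chance does not describe the TAC groups. In TAC mice these were Irf7 (0.846) and Oasl2 (0.875), and the array apart was TAC replicate 1. In Sham mice these were Bst2 (0.930) and Usp18 (0.861), and the array apart was Sham replicate 1. These groups share arrays and are not independent of each other. What set the arrays apart was not tested.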

How the results depend on the processing

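Over the alternatives run, 220 fold changes of the 10 probes were recomputed; 218 kept their direction and missed an adjusted p of 0.05, and 2 turned, Ifit2 (-0.19) and Usp18 (-0.0045), both in the table without TAC replicate 1. The count of the 10 probes higher at an unadjusted p of 0.05, 0 in the main comparison, was 1 (Bst2) with normexp background correction and 3 in the table without both replicates 1, and 0 to 3 when 1 array was left out. It was 3 with TAC replicate 1 left out, 1 without TAC replicate 2 (Bst2) and 2 without TAC replicate 4 (Isg15 and Ifit3). The replicate block gave 3 in the 7 scanned arrays (Ifit3, Oasl2, Bst2) and 3 in the table (Isg15, Ifit3, Bst2); in the scanned arrays TAC replicate 1 has no partner, so it leaves the comparison. The numbers were not taken to pair the samples. In the table, same-numbered arrays correlated in their deviations by 0.27 for replicates 1 and by 0.02 to 0.06 for the others. Of 4 Sham arrays, 1 correlated best with its own number. With 4 arrays per group these correlations cannot settle whether the samples were paired. The median over the 9 genes, 0.68, ranged from 0.14 in the table without TAC replicate 1 to 0.86 without TAC replicate 2, and was 0.32 without TAC replicate 1 in the scanned arrays and 0.38 with array weights. Over all probes, 0 passed an adjusted p of 0.05; it was 1 with normexp, 1 with median centring, 1 with array weights and 0 to 8 when 1 array was left out, the 8 without TAC replicate 4. Unadjusted calls were 1462 higher and 2814 lower in the main comparison, 986 and 3073 with median centring, 1857 and 2830 with quantile normalization, 1602 and 2587 by the methods' test, and 893 and 1602 without Sham replicate 3. The promoter motif was found in 5 of the 8 genes with either spacing rule. With 1 to 3 bases between the pair, 21 of 33 other interferon-stimulated genes and 9.91% of all genes held it. With 2 bases, 13 of 33 and 3.99% did. Of 368 medians of the other lists, 54 changed sign. Which cause lies behind these changes was not tested.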
